A study of Mus musculus with 20 samples.

Results

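The 8 genes described here, Ttr, Enpp2, Aqp1, Clic6, Slc4a5, Folr1, Kl and Otx2, mark the epithelium of the choroid plexus. They were taken by gene symbol from the 47729 genes counted in each library, and all 8 were present, so the set is 8 of 47729 genes. They were picked by symbol and not by a measured value, though with earlier results of these data known. RNA was sequenced from the cortex and the hippocampus of 10 C57Bl/6J pups at postnatal day 7. WT mice 1 to 5 carried no transgene, and Ube3aOE mice 6 to 10 carried extra copies of Ube3a on a bacterial artificial chromosome, called Ube3a+2 in the study. Every mouse gave 1 library per region, which makes 20 libraries in 4 groups of 5. The sample labels name neither the transgenic line nor the litters.

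The choroid plexus is a folded epithelium that hangs in the ventricles of the brain and secretes the cerebrospinal fluid. In the lateral ventricle it is attached along the edge of the hippocampus, so a dissected hippocampus can carry plexus with it, which is less so for the cortical mantle. Its epithelial cells devote a large share of their mRNA to a few secreted and transport proteins. Ttr encodes transthyretin, the carrier of thyroxine and retinol-binding protein that the plexus secretes into the fluid. Enpp2 encodes autotaxin, the secreted enzyme that makes lysophosphatidic acid, and is also expressed by oligodendrocytes. Aqp1 is the water channel of the apical membrane, Clic6 belongs to the chloride intracellular channel family, and Slc4a5 is a sodium bicarbonate cotransporter. Folr1 is the folate receptor that carries folate into the fluid, and Kl encodes klotho, the co-receptor of FGF23. Otx2 encodes a homeodomain transcription factor needed to form and maintain the plexus, which neurons and progenitors of the caudal forebrain and midbrain also express.

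The libraries held 14191093 to 16752326 reads counted on genes. Ube3a, which checks the genotype, was at 57.1 to 76.8 CPM (counts scaled to a common library total) in WT hippocampus and at 142 to 195 in Ube3aOE hippocampus, and at 54.4 to 70.0 against 130 to 182 in cortex. The 10 genes listed for hippocampal neurons summed to 395 to 623 CPM in the hippocampus libraries and to 90.4 to 230 in the cortex libraries, so the region labels held. Among the cortex libraries, those of Ube3aOE mice 8 and 9 held the most of these genes, 230 and 214 CPM against 90.4 to 121 in the other 8. In 4 libraries, both regions of WT mice 3 and 5, the counts of sex-linked genes went against the labelled sex. The hippocampus libraries of Ube3aOE mice 7 and 9 stood apart in the plexus genes, as described first. The tested comparisons and correlations were repeated without WT mice 3 and 5, and the comparisons also without mice 7 and 9.

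The promoters of Aqp1, Slc4a5 and Otx2 are printed to show the windows in which a motif of the OTX2 type was looked for, since OTX2 is the 1 transcription factor among the 8 genes. The sequences are from RefSeq (GRCm38.p6) and run 5′ to 3′ on the gene's strand, from 250 bases before to 50 after an annotated start. Of the 8 genes, 4 had an entry, with 7 promoters in all, of which 4 belong to Otx2. Capitals mark the 6-base motif TAATCC, or GGATTA where it lies on the opposite strand.
Aqp1, chr6:55336049-55336348, plus strand: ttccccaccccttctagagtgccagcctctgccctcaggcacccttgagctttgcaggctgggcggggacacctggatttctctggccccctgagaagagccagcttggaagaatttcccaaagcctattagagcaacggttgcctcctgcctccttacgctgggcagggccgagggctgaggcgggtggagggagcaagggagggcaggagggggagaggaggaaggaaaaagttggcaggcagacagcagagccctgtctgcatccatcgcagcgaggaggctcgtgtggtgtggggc
Slc4a5, chr6:83237125-83237424, plus strand: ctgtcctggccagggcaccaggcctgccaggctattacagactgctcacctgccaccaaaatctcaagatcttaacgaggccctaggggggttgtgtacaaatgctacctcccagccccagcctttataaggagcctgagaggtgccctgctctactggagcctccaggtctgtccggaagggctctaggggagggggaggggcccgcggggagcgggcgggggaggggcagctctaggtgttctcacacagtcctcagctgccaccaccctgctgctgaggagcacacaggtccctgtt
Otx2, chr14:48665060-48665359, minus strand: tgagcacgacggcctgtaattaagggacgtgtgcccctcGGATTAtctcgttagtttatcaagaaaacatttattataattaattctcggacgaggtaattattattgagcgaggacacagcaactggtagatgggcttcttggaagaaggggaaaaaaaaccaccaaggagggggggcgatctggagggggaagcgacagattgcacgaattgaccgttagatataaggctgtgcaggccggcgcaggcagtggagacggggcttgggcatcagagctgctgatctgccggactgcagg
The motif occurred in 1 of the 7 promoters, the Otx2 window shown, and in 2320 of all 32851 promoters in the table (7.06%). The printed Slc4a5 window lies within the gene as GENCODE M21 annotates it (chromosome 6, 83219828 to 83304945), at a start inside the gene. These matches describe letters in short windows and say nothing of binding.

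Plexus genes were high in 2 of the 10 hippocampus libraries, those of Ube3aOE mice 7 and 9. Together the 8 genes took 0.216% of all counts in the hippocampus library of mouse 7 and 0.0403% in that of mouse 9. In the other 8 hippocampus libraries they took 0.00482% to 0.00769%, and in the 10 cortex libraries 0.00534% to 0.00832%. Ttr alone made up 91.5% of the 8 genes' counts in mouse 7 and 80.0% in mouse 9, and at most 37.5% in any other library. In these bulk samples fewer epithelial cells and less RNA per cell cannot be told apart.

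**Figure D1:**
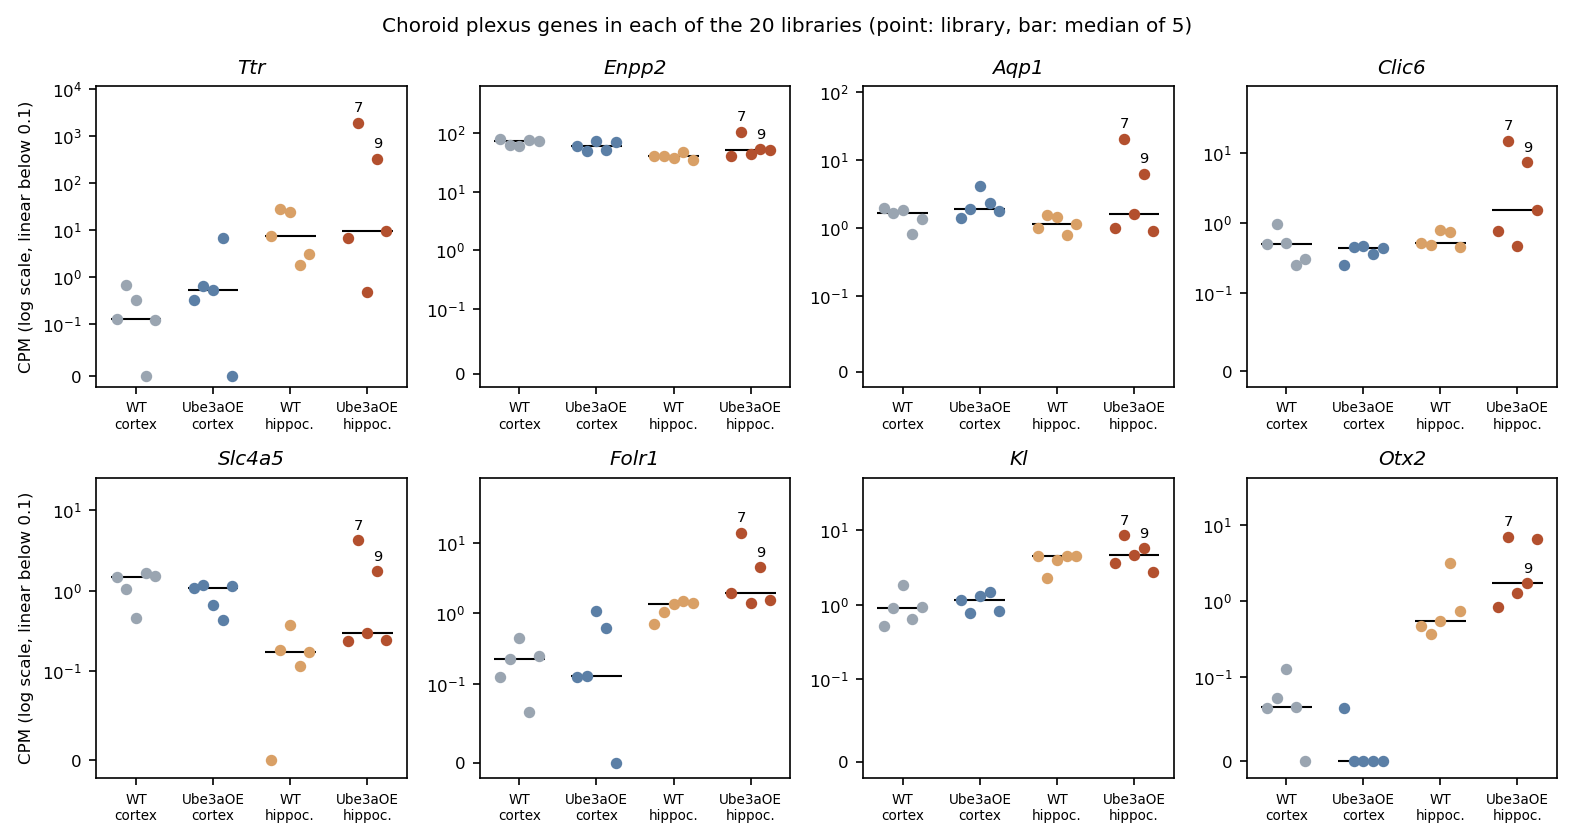
Level of each of the 8 choroid plexus genes in the 20 libraries, in CPM on a log scale that is linear below 0.1; points are libraries in order of mouse number, bars are medians of the 5 libraries of a group, and the hippocampus libraries of mice 7 and 9 are numbered. Ttr reaches 1898 CPM in mouse 7 and 324 in mouse 9 and stays under 28 in the other hippocampus libraries.

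Ttr (ENSMUSG00000061808, chromosome 18, 20665280 to 20674321 in GRCm38) spanned the widest range of the 8. In hippocampus it was at 7.27, 27.9, 24.0, 1.84 and 3.12 CPM in WT mice 1 to 5 and at 6.73, 1898, 0.473, 324 and 9.41 CPM in Ube3aOE mice 6 to 10. In cortex it was at 0.128, 0.673, 0.324, 0 and 0.124 CPM in WT mice and at 0.318, 0.646, 0.537, 6.65 and 0 CPM in Ube3aOE mice. Mice 7 and 9 were far above every other hippocampus library, and the lowest level, 8 counts in Ube3aOE mouse 8, lay below the 109 counts in the cortex of mouse 9. That cortex library held more Ttr than the hippocampus libraries of WT mice 4 and 5 and of mouse 8. The cortex of mouse 7, whose hippocampus had the most Ttr, was at 0.646 CPM of Ttr, below WT mouse 2 at 0.673.

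Enpp2 (ENSMUSG00000022425, chromosome 15, 54838901 to 54952892), the gene of the other secreted protein, was expressed at a substantial level in every library. In hippocampus its levels were 40.1, 40.5, 37.4, 48.3 and 35.2 CPM in WT mice and 40.6, 107, 43.6, 53.6 and 52.0 CPM in Ube3aOE mice. In cortex they were 79.2, 62.6, 59.3, 76.6 and 73.8 CPM in WT mice and 60.9, 49.7, 73.5, 52.1 and 71.8 CPM in Ube3aOE mice. Mouse 7 was highest in hippocampus, whereas mouse 9 was within 1.03 times the highest of the other 8 hippocampus libraries. The summed level of 11 oligodendrocyte lineage genes was 311 to 523 CPM in hippocampus and 288 to 433 CPM in cortex, and the part of these cells in the Enpp2 level was not tested.

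Among the channels and transporters, Aqp1 (ENSMUSG00000004655, chromosome 6, 55336432 to 55348555) was at 0.996, 1.54, 1.48, 0.805 and 1.15 CPM in WT hippocampus and at 1.01, 20.5, 1.60, 6.30 and 0.899 CPM in Ube3aOE hippocampus. In cortex it was at 1.98, 1.65, 1.88, 0.834 and 1.37 CPM in WT mice and at 1.40, 1.94, 4.18, 2.38 and 1.77 CPM in Ube3aOE mice. Apart from mice 7 and 9, the hippocampus libraries lay in the lower part of the cortex range or below it. Clic6 (ENSMUSG00000022949, chromosome 16, 92485736 to 92541243) was at 0.527, 0.492, 0.801, 0.747 and 0.462 CPM in WT hippocampus and at 0.775, 15.1, 0.473, 7.46 and 1.56 CPM in Ube3aOE hippocampus. Its cortex levels ran from 0.254 to 0.972 CPM, 4 to 13 counts per library. Mouse 10 stood highest after mice 7 and 9, with 26 counts of Clic6.

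Slc4a5 (ENSMUSG00000068323, chromosome 6, 83219828 to 83304945), the bicarbonate cotransporter, had fewer counts. In hippocampus it gave 0, 3, 6, 2 and 3 counts in WT mice and 4, 70, 5, 27 and 4 in Ube3aOE mice, and 0 counts allow up to 3. In cortex it gave 23, 14, 7, 26 and 24 counts in WT mice and 17, 18, 11, 7 and 18 in Ube3aOE mice. Cortex was thus above each hippocampus library other than those of mice 7 and 9.

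Of the receptors, Folr1 (ENSMUSG00000001827, chromosome 7, 101858331 to 101870788) was at 0.703, 1.05, 1.36, 1.49 and 1.39 CPM in WT hippocampus and at 1.91, 13.8, 1.42, 4.44 and 1.56 CPM in Ube3aOE hippocampus. Cortex gave 2, 3, 7, 1 and 4 counts of Folr1 in WT mice and 2, 2, 18, 10 and 0 in Ube3aOE mice. Its highest cortex library, mouse 8 at 1.07 CPM, overlapped the hippocampus range. Kl (ENSMUSG00000058488, chromosome 5, 150952607 to 150993817) was at 4.45, 2.28, 4.01, 4.54 and 4.45 CPM in WT hippocampus and at 3.57, 8.45, 4.55, 5.66 and 2.76 CPM in Ube3aOE hippocampus. In cortex Kl ran from 0.510 to 1.81 CPM, below every hippocampus library. Klotho is made by neurons as well as by the plexus, and Kl in mouse 7 was 2.00 times the median of the other 8 hippocampus libraries, the smallest excess of the 8 genes.

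Otx2 (ENSMUSG00000021848, chromosome 14, 48657677 to 48673819), the transcription factor, followed another order. In hippocampus it gave 8, 6, 9, 56 and 13 counts in WT mice and 14, 118, 22, 27 and 112 in Ube3aOE mice. In cortex it gave 1, 1, 2, 1 and 0 counts in WT mice and 1, 0, 0, 0 and 0 in Ube3aOE mice. Mice 7 and 10 were highest and WT mouse 4 next, while mouse 9, with 324 CPM of Ttr, held 1.74 CPM of Otx2. Otx2 shares 154 exon bases with the opposite-strand gene Otx2os1, and Enpp2 shares 345 with Gm26684. The strand setting of the counting is not given in the sources used here, so reads in these stretches could not be assigned with certainty.

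The excess in mice 7 and 9 was not the same multiple for each gene. Over the median of the other 8 hippocampus libraries, mouse 7 was 271 times higher for Ttr, 23.7 for Clic6, 20.0 for Slc4a5, 18.9 for Aqp1, 9.86 for Folr1, 8.99 for Otx2, 2.63 for Enpp2 and 2.00 for Kl. For mouse 9 the multiples were 46.3 for Ttr, 11.7 for Clic6, 8.21 for Slc4a5, 5.82 for Aqp1, 3.17 for Folr1, 2.19 for Otx2, 1.34 for Kl and 1.32 for Enpp2. Ttr led in both libraries and the 3 channel and transporter genes followed. Between the libraries, the ratio of mouse 7 to mouse 9, per count total, was 6.12 for Ttr (95% exact interval 5.94 to 6.31), 3.41 for Aqp1 (2.71 to 4.31), 3.26 for Folr1 (2.48 to 4.33), 2.55 for Slc4a5 (1.61 to 4.13) and 2.12 for Clic6 (1.69 to 2.66). It was 4.29 for Otx2 (2.81 to 6.78), 2.08 for Enpp2 (1.92 to 2.26) and 1.56 for Kl (1.19 to 2.06). The interval of Ttr overlapped that of Otx2 and none of the other 6. These ratios include what each gene had in every library, and with the median of the other 8 subtracted from both the ratio was 6.71 for Otx2, 5.96 for Ttr, 5.07 for Enpp2, 4.09 for Folr1, 3.73 for Aqp1, 2.95 for Kl, 2.63 for Slc4a5 and 2.12 for Clic6. The intervals cover counting error only, in 1 library each, and the subtracted ratios have none.

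Across all genes, 7 were at least 2 times the highest of the other 8 hippocampus libraries, and at least at 1 CPM, in both mouse 7 and mouse 9. They were Ttr, Aqp1, Clic6, Folr1 and Slc4a5 of the 8 genes, and Kcne2 and Krt18, which stand on a list of 34 other plexus epithelium genes. Among the 15220 genes that passed the filter on low counts in hippocampus, 4 met this criterion (0.0263%), all of them among the 8. Mice 7 and 9 were set apart by their level of Ttr, itself among the 8, so this share describes these libraries and tests nothing. Clic6, at 8 to 26 counts in the other 8 hippocampus libraries, passed this filter only with the counts of mice 7 and 9. It also passed in the fit without these libraries, where the Ube3aOE group is smaller. Kcne2, a potassium channel subunit of the plexus, was at 7.79 CPM in mouse 7 and 1.74 in mouse 9 against at most 0.370 elsewhere in hippocampus. Krt18, an epithelial keratin, was at 3.08 and 1.80 CPM against at most 0.575. Of the 34 other plexus genes, 26 were above each of the other 8 libraries in mouse 7 and 16 in mouse 9, and of the 8 genes 8 and 7, Otx2 in mouse 9 being the exception. Of the 15220 genes, 7.99% were above each of the other 8 libraries in mouse 7 and 12.3% in mouse 9. The lists are counted whole, whereas 7 of the 8 genes and 25 of the 34 passed this filter, so the shares cover unlike sets of genes.

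The markers of neighbouring tissues are given against the same shares of all genes. Of 12 genes of ependymal cells, which line the ventricles, 4 were above the other 8 libraries in mouse 7 and 1 in mouse 9, and of 10 genes of meninges and plexus stroma 2 and 1. Of 8 blood vessel genes 0 and 1 were above, and of 6 blood genes 0 and 0. Of 10 neocortical genes 0 and 3 were above, of 10 hippocampal genes 0 and 1, and of 11 oligodendrocyte lineage genes 0 and 1. The median multiple in mouse 9 was 1.48 for the neocortical and 0.601 for the hippocampal genes. Its summed neocortical level, 537 CPM, lay within the 320 to 564 CPM of the other 8 libraries. The summed ependymal level was 32.4 to 84.1 CPM over the other 8 libraries, with its highest value in mouse 10, and the summed blood level was 98.6 to 199 CPM over them.

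**Figure D2:**
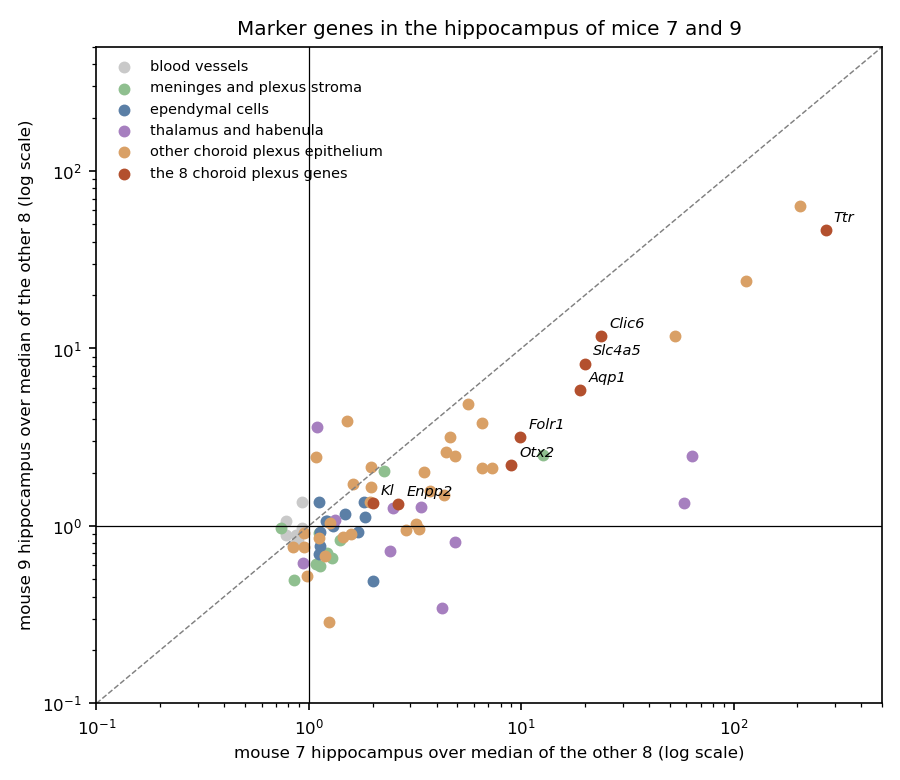
Level of marker genes in the hippocampus library of mouse 7 (horizontal axis) and of mouse 9 (vertical axis), each divided by the median of the other 8 hippocampus libraries, on log scales; points are genes, coloured by list, and the dashed line marks equal multiples. It shows the 8 plexus genes, named, with 32 of the 34 other plexus genes whose median is above 0, and Ttr at 271 and 46.3 times. The 8 named genes lie below the dashed line, and the thalamic genes Gbx2 and Tcf7l2 are at 63.8 and 58.7 times in mouse 7.

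The libraries with most Otx2 in hippocampus were also high in several genes of the thalamus and habenula, the diencephalic tissue beneath the hippocampus. Tcf7l2, a transcription factor of thalamic neurons, was at 4.45, 2.83, 4.25, 226 and 4.27 CPM in WT mice 1 to 5 and at 4.77, 271, 46.2, 6.17 and 564 CPM in Ube3aOE mice 6 to 10. The libraries of mice 4, 7, 8 and 10 were high, and mice 4, 7 and 10 were also the 3 highest for Otx2. Gbx2, which specifies thalamic neurons, was at 5.52, 14.9, 1.06 and 20.4 CPM in mice 4, 7, 8 and 10 and at most at 0.579 in the other 6. Pou4f1, a marker of the habenula, was at 12.0 CPM in mouse 10 and 1.95 in WT mouse 4, but gave 1 count in mouse 7. Prkcd and Tac1, also on the list, were at 0.935 and 1.10 times the median of the other 8 in mouse 7. In mouse 9 Prkcd was at 0.618 times, but Tac1 was at 3.59 times, 50.3 CPM against at most 16.7 in the other 8. Tac1 was the 1 gene of the 11 on the list above each of the other 8 libraries in mouse 9. The 11 genes of the thalamus and habenula list summed to 274 to 1838 CPM over the hippocampus libraries without mice 7 and 9 and to 157 to 250 CPM in cortex. The part of this tissue in the Otx2 level was not tested, and mouse 9, with plexus genes high and Tcf7l2 at 6.17 CPM, had Otx2 at 2.19 times the median of the other 8.

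**Figure D3:**
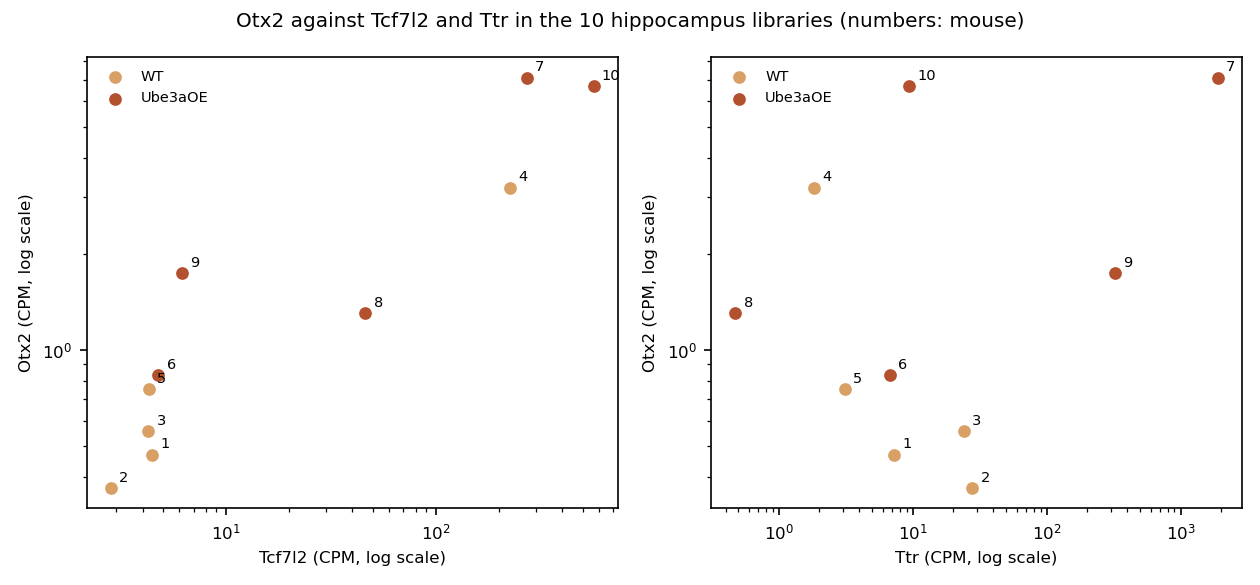
Otx2 level against Tcf7l2 (left) and against Ttr (right) in the 10 hippocampus libraries, in CPM on log scales, with mouse numbers beside the points. Mice 4, 7 and 10 are highest for Otx2 and have Tcf7l2 at 226, 271 and 564 CPM, whereas Ttr in mice 4 and 10 is at 1.84 and 9.41 CPM.

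Levels of different genes were compared per kilobase of merged exons. Over the 8 hippocampus libraries other than mice 7 and 9, the median level in CPM per kilobase was 7.01 for Enpp2, 5.90 for Ttr, 0.610 for Folr1, 0.453 for Kl, 0.413 for Aqp1, 0.188 for Otx2, 0.163 for Clic6 and 0.0364 for Slc4a5. In this order every gene overlapped its neighbour's range except Slc4a5, which lay below Clic6 in each library. In cortex the median was 11.6 CPM per kilobase for Enpp2, 0.695 for Aqp1, 0.270 for Ttr, 0.191 for Slc4a5, 0.114 for Clic6, 0.0981 for Kl, 0.0770 for Folr1 and 0.00752 for Otx2. Enpp2 was above Aqp1 in cortex without overlap, and the other neighbours overlapped. In mouse 7 the hippocampal level of Ttr was 1600 CPM per kilobase and that of Enpp2 18.5.

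The first comparison asked whether the genes differed between the dissected regions. With all 20 libraries, 5 of the 8 genes were higher in hippocampus than in cortex and 0 were lower. Over all 15661 genes tested, 12.0% were called higher and 7.24% lower, 19.2% in all (edgeR's quasi-likelihood test, Benjamini-Hochberg adjusted p under 0.05 and a log2 fold change beyond 0.5). The median log2 fold change was 2.03 over the 8 genes and -0.00526 over all genes tested.

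Ttr was higher in hippocampus by a log2 fold change of 6.89 ± 1.49 (SE, edgeR adjusted p = 0.00108) and Otx2 by 5.67 ± 0.777 (edgeR adjusted p = 6.47e-06). Folr1 was higher by 2.95 ± 0.561 (edgeR adjusted p = 0.000242), Kl by 2.1 ± 0.229 (edgeR adjusted p = 2.07e-07) and Clic6 by 1.95 ± 0.599 (edgeR adjusted p = 0.0109). Aqp1 at 0.50 (95% interval -0.56 to 1.56, edgeR adjusted p = 0.429) and Slc4a5 at -1.12 (-2.25 to 0.01, edgeR adjusted p = 0.0913) did not pass the threshold. Enpp2, at -0.43 (edgeR adjusted p = 0.0206), stayed within the border on the fold change. Kl and Otx2 were higher in all 10 hippocampus libraries than in any cortex library, a separation found for 5.52% of genes in this direction and 3.74% in the other. Over all libraries Otx2 gave 385 counts in hippocampus and 6 in cortex, a ratio of 62.7 per count total with a 95% counting interval of 28.5 to 172.

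Without the hippocampus libraries of mice 7 and 9, an alternative chosen after the values were seen, all 8 genes passed the test, 5 higher and 3 lower in hippocampus. The background was then 12.2% higher and 7.60% lower, 19.8% in all, of 15912 genes. The log2 fold change of the lower genes was -2.29 for Slc4a5, -0.68 for Aqp1 and -0.62 for Enpp2. Ttr was higher by 3.73, Otx2 by 5.54, Folr1 by 2.20, Kl by 1.87 and Clic6 by 0.74. With the mouse as a block and without mice 7 and 9, 7 of the 8 genes were called, 4 higher and 3 lower, and Clic6 at 0.73 was not (edgeR adjusted p = 0.0802). Slc4a5 also separated the regions without overlap in these libraries, as did 4.73% of genes in the lower and 6.42% in the higher direction. Without WT mice 3 and 5, in which the sex-linked genes went against the labels, 4 of the 8 genes were called, and Clic6 at 1.86 was not (edgeR adjusted p = 0.0697).

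**Figure D4:**
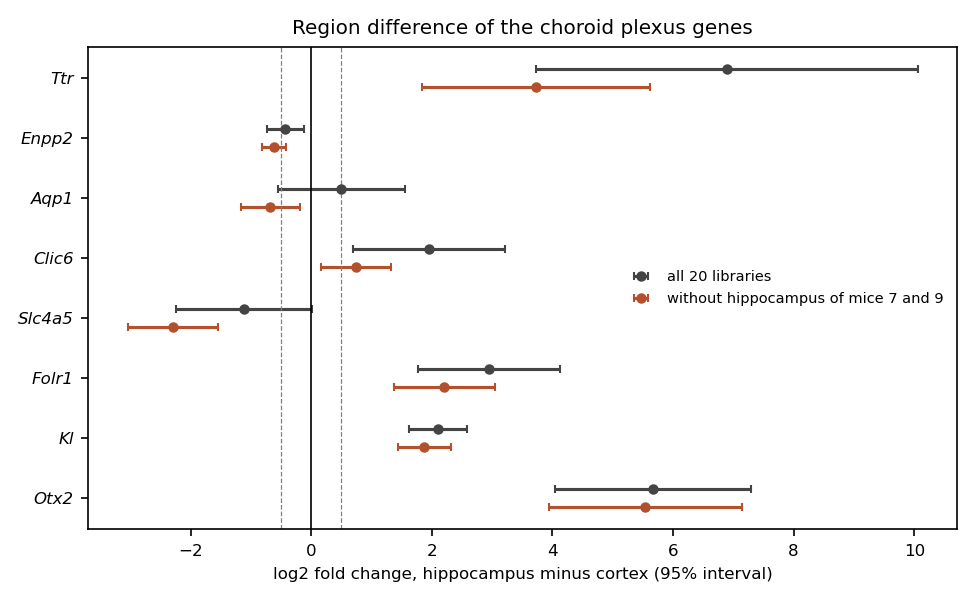
Log2 fold change of hippocampus over cortex for each of the 8 plexus genes, with 95% intervals, from all 20 libraries (grey) and without the hippocampus libraries of mice 7 and 9 (red); dashed lines mark the border of 0.5. Aqp1 moves from 0.50 to -0.68 and Slc4a5 from -1.12 to -2.29, whereas Otx2, at 5.67 and 5.54, and Kl, at 2.1 and 1.87, change little.

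The other lists differed in direction between the regions. Of 26 other plexus genes tested with all 20 libraries, 11 were higher in hippocampus and 4 lower, with a median log2 fold change of 0.64. Those with the largest difference were Lmx1a, a transcription factor of the roof plate and cortical hem, at 4.82, Cldn2, the tight junction protein of leaky epithelia, at 4.02, Car12, a carbonic anhydrase, at 3.92 and Slc39a4, a zinc transporter, at 2.67. Slc13a4, a sulfate transporter, was lower, with a log2 fold change of -1.59, as was the collagen gene Col8a1 with -2.52. All 12 ependymal genes were higher, with a median of 2.52, and 4 of 10 meningeal and stromal genes were lower, with 0 higher. The thalamus and habenula list had 7 of 9 genes higher. Of the vessel and blood genes 0 of 8 and 0 of 6 were called.

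The second comparison asked whether the Ube3a transgene changed these genes. In hippocampus 0 of the 7 genes tested passed the threshold, and over all 15220 genes 1 did (0.00657%), Ube3a itself. At an unadjusted p under 0.05 edgeR gave 1098 genes, and DESeq2 also called 0 of the 7. The log2 fold change of Ube3aOE over WT was 5.13 for Ttr (95% interval 0.46 to 9.81), 3.05 for Clic6 (0.85 to 5.24), 2.34 for Aqp1 (0.27 to 4.41), 1.94 for Folr1 (0.42 to 3.46) and 1.70 for Otx2 (-0.07 to 3.47), each with an edgeR adjusted p of 0.668. Enpp2 was at 0.55 and Kl at 0.34 on this scale, and Slc4a5 did not pass the filter on low counts. The WT and Ube3aOE hippocampus libraries overlapped for each of the 8 genes, while 0.493% of genes were higher and 0.631% lower without overlap.

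In Ube3aOE hippocampus the 8 genes summed to 55.6, 53.7 and 75.1 CPM in mice 6, 8 and 10, against 46.7 to 74.3 in WT. Mice 7 and 9 are both Ube3aOE, so in their libraries an effect of the genotype and attached plexus cannot be told apart. Without them the log2 fold change in hippocampus was -1.21 for Ttr, 0.62 for Clic6, -0.02 for Aqp1, 0.44 for Folr1, 1.44 for Otx2, 0.17 for Enpp2 and -0.12 for Kl, none past the threshold (edgeR). The 95% interval then ran from -4.0 to 1.58 for Ttr and from -0.70 to 0.65 for Aqp1, so differences of these sizes were not resolved. Without WT mice 3 and 5 instead, 0 of the 7 genes were called in hippocampus, with Ttr at 5.19, Clic6 at 3.08 and Aqp1 at 2.44 (edgeR adjusted p = 0.995 each). For Otx2, the highest libraries that remained without mice 7 and 9 were Ube3aOE mouse 10 and WT mouse 4, which had high Tcf7l2.

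In cortex 4 of the 8 genes passed the filter, and 0 of them were called between the genotypes, beside 1 of 14947 genes (0.00669%), again Ube3a, and 663 genes at an unadjusted p under 0.05. The log2 fold change was 0.61 for Aqp1 (95% interval -0.06 to 1.27), 0.21 for Kl (-0.50 to 0.92), -0.19 for Enpp2 (-0.45 to 0.08) and -0.46 for Slc4a5 (-1.21 to 0.28). Without WT mice 3 and 5, when Ttr also passed the filter, 0 of 5 were called. The groups overlapped for each of the 8, where 0.301% of genes were higher and 0.375% lower in Ube3aOE cortex without overlap. Whether the genotype difference itself differed between the regions was tested by the interaction term, for which edgeR called 0 of the 8 genes and 0 of all 15661 genes, with 590 genes at an unadjusted p under 0.05 and 0 calls by DESeq2. The largest estimates were 3.57 for Otx2, 3.42 for Slc4a5 and 3.38 for Clic6 on the log2 scale (edgeR adjusted p = 0.997 each).

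Co-variation was examined within each region on log2 CPM. Since mice 7 and 9 form a separate cluster in hippocampus, no correlation between 2 of the genes was tested over all 10 libraries there, and the other 8 were used. Over these, 0 of the 28 pairs passed an exact permutation test after adjustment, with 13 of 28 correlations above 0 and a median r of -0.01. The strongest pair was Otx2 and Enpp2 with r = 0.87 (exact permutation, adjusted p = 0.176), which dropped to 0.30 without the 2 libraries farthest from the median of Otx2. Without WT mice 3 and 5 as well, over 6 libraries, 0 pairs passed. Outside mice 7 and 9 the 8 genes therefore showed no detectable joint variation at this number of libraries. Low counts limit what could be seen, for Slc4a5 and Clic6 and also for Aqp1 and Folr1. The variance of the counts over their mean, 1.21 for Aqp1 and 1.62 for Folr1, was near that of counting error. At mouse 7's excess proportions, the highest Ttr count here, 453, goes with 4.66 of Aqp1, 3.46 of Clic6 and 2.98 of Folr1. These correlations could thus not decide whether the genes share a small plexus part.

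In cortex, over 10 libraries, 1 of 28 pairs passed, Kl with Slc4a5, and the relation was negative. Pearson's r was -0.89 (permutation p = 0.00061, adjusted p = 0.0171) and Spearman's rho -0.82 (permutation p = 0.00602, adjusted p = 0.169). Without the 2 libraries farthest from the median of Kl, r was -0.88. The pair no longer passed the adjusted threshold without WT mouse 3 or without Ube3aOE mouse 8. Without WT mice 3 and 5 together it passed, with r = -0.90 (exact permutation, adjusted p = 0.0479). Without mice 8 and 9, whose cortex libraries held the most of the hippocampal genes, r was -0.87 and the pair did not pass (exact permutation, p = 0.0103, adjusted p = 0.242), and r was -0.58 once the 2 libraries farthest from the median of Kl were also left out. Within the WT mice, Kl was lowest in mouse 1 at 0.510 CPM and highest in mouse 3 at 1.81, and Slc4a5 was lowest in mouse 3 at 0.453. Within the Ube3aOE mice, mouse 9 had the most Kl, 1.46 CPM, and the least Slc4a5, 0.427 CPM. Each group holds 5 libraries, too few for a correlation of its own. With the mean of each genotype taken out, 1 pair still passed.

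Aqp1 and Folr1 were both highest in the cortex of mouse 8. Their correlation was r = 0.71, with an adjusted permutation p above the threshold. The meningeal and stromal genes were highest in the same library, with a summed level of 832 CPM against 136 to 429 CPM in the other 9. Slc13a4 was at 32.6 CPM there and Kcnj13, a potassium channel of the plexus and other epithelia, at 3.04 CPM, while Ttr was at 0.537 CPM and Clic6 at 0.477. Collagen, Dcn, Igf2 and Slc6a13 are expressed by fibroblasts of the leptomeninges. The cortex of mouse 8 also held the most of the hippocampal genes, 230 CPM, and of the thalamus and habenula genes, 250 CPM. Mouse 9 was next for both sums, at 214 and 237 CPM, and for Aqp1 and Folr1, at 2.38 and 0.610 CPM. The part of meninges, hippocampus or thalamus in the level of Aqp1 and Folr1 was not tested.

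**Figure D5:**
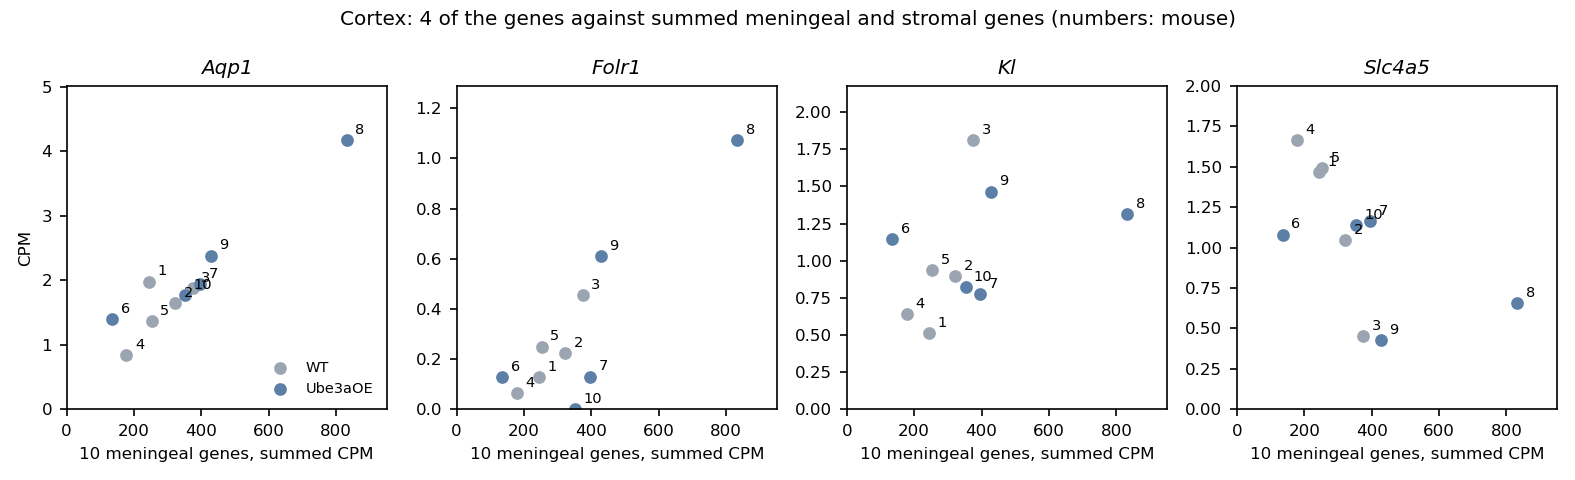
Level of Aqp1, Folr1, Kl and Slc4a5 in the 10 cortex libraries (vertical axes, CPM) against the summed level of 10 meningeal and plexus stroma genes (horizontal axes, CPM), with mouse numbers beside the points. Mouse 8, at 832 CPM of the summed genes, has the highest Aqp1 (4.18 CPM) and Folr1 (1.07 CPM), but neither the highest nor the lowest Kl or Slc4a5.

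A mouse with more of a gene in one region did not detectably have more of it in the other. Over the 8 mice other than 7 and 9, 0 of 8 genes passed an exact permutation test after adjustment. Aqp1 had r = 0.67 (exact permutation, p = 0.0498, adjusted p = 0.199) and Slc4a5 r = -0.73 (exact permutation, p = 0.0419, adjusted p = 0.199). Without the 2 mice farthest from the median in hippocampus these were 0.54 and -0.88. Without WT mouse 1, 1 gene passed, Slc4a5, and its relation was negative (r = -0.93). Hippocampal Slc4a5 was at no more than 6 counts in these mice. Without WT mice 3 and 5, 0 genes passed.

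The genes outside the 8 whose log2 CPM ran most closely with the mean log2 CPM of the 8 are given as a description, over libraries that share the region. In hippocampus, of 15213 genes searched over 10 libraries, these were Aldh2 and Ppp1r3b with r = 0.90 each, Wfikkn2 with 0.88, Ict1, Col8a2, Sema3b, Gmds, Tshz1, Txnrd3 and, at the end of the 10, Coro1c with 0.85. Wfikkn2, which encodes a secreted protease inhibitor and growth factor binding protein, was at 9.90 CPM in mouse 7 and 2.64 in mouse 9, and at 2.58 in the highest of the others. The order rests on mice 7 and 9, which were the highest 2 for all 10 genes and form a cluster of their own, so these values describe that cluster. Over the other 8 libraries r was 0.65 for Aldh2, 0.28 for Ppp1r3b and 0.50 for Wfikkn2. In cortex, of 14943 genes, they were Gpc4 with r = 0.97, B630019K06Rik, A930011G23Rik, Pacsin3, Ebf3, 2310030G06Rik, Spint2, Eid2b, Lrig3 and Rnf145 with 0.92. All 10 peaked in the cortex of mouse 8 or mouse 9, and without these libraries r was 0.95 for Gpc4 and 0.89 for Rnf145. The same libraries held the most of the hippocampal genes, as given above, and of the thalamus and habenula genes, with 250 and 237 CPM against 157 to 188 in the other 8, and the part of such tissue was not tested. The mean of the 8 did not stand for each of them in cortex, where r with it was 0.73 for Aqp1 and 0.65 for Kl but -0.46 for Enpp2 and -0.79 for Slc4a5. Spint2, an epithelial protease inhibitor on the list of other plexus genes, was at 34.6 CPM in mouse 8 against a median of 13.7.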

How the data were processed

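The 20 libraries were polyadenylated RNA, made with Illumina's TruSeq stranded kit from RNA extracted with RNeasy columns. The authors deposited 1 file per library with whole-number counts of reads per gene, without normalization. The submitters' processing notes name HISAT2 2.1.0, HTSeq 0.11.2 and GRCm38 (mm10), and the annotation and the strand setting are not given in the sources used here. The 5 lines per file for reads not counted on a gene (18.8% to 30.3% of a library) were left out. These include multiply aligned reads, so genes with near-identical copies may be undercounted. Groups came from the sample labels.

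Counts were scaled by TMM factors and tested with edgeR 4.0.16 in R 4.3.3 (filterByExpr, robust quasi-likelihood F test, Benjamini-Hochberg adjustment over all genes tested). Genes with an adjusted p under 0.05 and a log2 fold change beyond 0.5, the study's thresholds, were called. Regions and the interaction were fitted over all 20 libraries and genotypes within each region. Correlations were computed on log2 CPM (prior count 2) with two-sided permutation tests, exact over fewer than 10 libraries (40320 orders for 8) and with 100000 random orders over 10. Intervals of single counts and of ratios are 95% exact Poisson intervals and cover counting error only, since reads without molecular identifiers are not independent molecules. The limit for a count of 0, up to 3 counts, is the one-sided 95% bound, which is lower than the upper end of the two-sided interval. Exon lengths, positions and overlaps were taken from GENCODE release M21, and promoters from RefSeq (GRCm38.p6). The fit was checked on simulated data.

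The mouse numbers in the labels pair the hippocampus and cortex library of each animal. As a check, each animal's 2 libraries were correlated over 15478 genes on log2 CPM less the group means, which gave r from -0.0403 (mouse 4) to 0.255, over 0.1 in 9 of 10 mice. The study names no paired test, so the mouse as a block was an alternative.

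The 8 genes, the marker lists and the tests were chosen with earlier results of these data known. Genes named are the 8, Ube3a, genes of the other lists with the largest called region difference (up to 4 a list) or against the direction of their list, and the 10 genes most correlated with the mean of the 8 in each region. Kcne2, Krt18, Tcf7l2, Gbx2, Pou4f1, Kcnj13, Wfikkn2 and the examples of meningeal genes were singled out after their values were seen. The alternatives were DESeq2 1.42.0, no filter, no border on the fold change, no TMM factors, a term for the labelled sex, a common fit of all libraries, the block, another prior count and each mouse left out. Leaving out mice 7 and 9, mice 3 and 5 or, for correlations in cortex, mice 8 and 9 was added after the values were seen. Plots were made with matplotlib 3.10.9 in Python 3.11.15.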

Additional observations from a re-analysis of the deposited data

Results flagged for a closer look

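For each of the 8 genes and 4 groups, the distance of the most extreme library from its nearest neighbour was set against the range of the 5 libraries (Dixon's ratio above 0.71). Of 32 such comparisons 8 exceeded it. The limit gives about 1 in 20 by chance only for independent, normally distributed values. Low counts are not so distributed and the genes share libraries, so the 8 are a description.

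Of these, 4 were in the hippocampus library of Ube3aOE mouse 7, far above the other 4 of its group, with Ttr at 1898 CPM, Enpp2 at 107 CPM, Aqp1 at 20.5 CPM and Folr1 at 13.8 CPM. The cortex library of Ube3aOE mouse 9 was far above its group for Ttr, at 6.65 CPM. Kl in the hippocampus of WT mouse 2 was far below its group, at 2.28 CPM. Otx2 in the hippocampus of WT mouse 4 was far above its group, at 3.22 CPM, with Tcf7l2 at 226 CPM. Otx2 in the cortex of Ube3aOE mouse 6 was at 0.0635 CPM, which is 1 count where the other 4 libraries had 0.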

How the results depend on the processing

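The region comparison called 5 of the 8 genes with all libraries. The replicate block (the mouse, which pairs the regions) also gave 5, the same genes, with all 20 libraries, and DESeq2 and a test without the border on the fold change gave 6. Leaving out 1 mouse at a time gave 5 to 7, with 7 without mouse 7, when Enpp2 and Slc4a5 were also called, lower in hippocampus. Without the hippocampus libraries of mice 7 and 9 the count was 8, with Aqp1 reversed at -0.68, and with the block and without mice 7 and 9 it was 7, with Aqp1 at -0.67 and Clic6 not called. Leaving out 1 mouse moved the region difference of Aqp1 between -0.19 and 0.78.

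No setting called a gene of the 8 between genotypes or in the interaction. In hippocampus, the difference between genotypes reversed without mice 7 and 9 for Ttr (-1.21), Aqp1 (-0.022) and Kl (-0.12). The interaction reversed without their hippocampus libraries for Ttr (-3.96), Aqp1 (-0.63), Kl (-0.33) and Folr1 (-0.36), and with the block and without both mice for Ttr (-1.71), Aqp1 (-0.63), Kl (-0.35) and Folr1 (-0.21). Without mice 3 and 5 that of Kl was -0.30. With 1 mouse left out the interaction ran from -0.22 to 4.57 for Ttr, from -0.24 to 0.34 for Kl and from -0.068 to 2.19 for Folr1. Pairs of genes past the threshold in cortex numbered 0 without mice 8 and 9 and 0 to 1 with 1 mouse left out, and genes related between the regions 0 to 1. The causes were not tested.

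Depth limits the genes of low count, Slc4a5 and Otx2 above all, and 5 libraries per group limit the genotype comparisons. The part of attached plexus, meninges or thalamus in any difference was not tested.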

Other observations

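Among the 34 other plexus epithelium genes, some were raised more in the hippocampus of mouse 9 than in that of mouse 7, the opposite of the 8 genes described above. These genes were singled out after their values were seen. Htr2c, the serotonin receptor known from the plexus and from neurons, was at 36.3 CPM in mouse 7 and 82.8 CPM in mouse 9, a ratio of 0.459 (95% exact interval 0.416 to 0.506, counting error only), with 46.0 CPM as the highest of the other 8 hippocampus libraries. Prlr, the prolactin receptor, was at 1.45 and 3.73 CPM, a ratio of 0.406 (0.241 to 0.664), with 2.88 CPM as the highest of the others. Spint2 was at 35.0 and 37.2 CPM and Ace, the angiotensin-converting enzyme, at 27.8 and 30.1 CPM, with intervals of the ratio that include 1. The roof plate genes Lmx1a and Msx1 were above the other 8 libraries in mouse 7, at 1.99 and 8.81 CPM, and not above them in mouse 9, at 0.643 and 2.89 CPM. Col8a1 was 5.59 times the median of the other 8 in mouse 7 and 4.88 times in mouse 9.

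Tmem72, a membrane protein gene of the plexus and kidney, was at 6.04 CPM in mouse 7, 1.87 in mouse 9 and 1.20 in mouse 10 in hippocampus, and at no more than 0.0635 CPM in any other library of either region. Mouse 10 was also the highest of the other 8 hippocampus libraries for Clic6, while its Ttr, at 9.41 CPM, was below that of WT mice 2 and 3.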
